A study of Mus musculus with 18 samples.

Results

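Txnip and its relatives Arrdc1, Arrdc2, Arrdc3 and Arrdc4, the alpha-arrestin genes of the mouse apart from Arrdc5, were followed by mRNA-seq through heat shock and ER stress. They are the 5 genes with these names among the 20207 genes listed for each of 18 libraries, and all 5 had reads in every library and so were among the 12731 genes tested. The cells were NIH3T3, an established mouse fibroblast line, stably expressing DD-GFP, the L106P destabilizing domain (DD) derived from FKBP fused to superfolder GFP, and were a sorted population with high GFP rather than a clone. Shield-1 (S1), the ligand that keeps the DD folded, was present throughout in every group, so the folded fusion protein is shared by stressed and reference cells. The 6 groups of 3 cultures each were an unstressed reference (0 min), heat shock (HS, a shift to a higher temperature) for 45 and 135 min, and tunicamycin for 45, 135 and 405 min. HS at 405 min was not analysed here, and the 5 comparisons with unstressed cells all use the same 3 reference cultures. None of the 18 libraries is an unstressed culture from 45, 135 or 405 min. In comparisons with the reference and between times, treatment and time in culture therefore cannot be told apart.

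Alpha-arrestins share the fold of the visual and beta-arrestins and carry proline-rich motifs that recruit ubiquitin ligases of the NEDD4 family to membrane proteins, which are then internalized. Txnip binds thioredoxin and restrains glucose uptake by removing glucose transporters such as Slc2a1 from the cell surface, and Arrdc4 also restrains glucose uptake. Transcription of both is driven by Mlxip with its partner Mlx when glucose metabolites rise, and the Txnip mRNA is short-lived. Tunicamycin blocks N-linked glycosylation and so unfolds proteins in the ER, where the sensors Ern1 and Eif2ak3 respond, both of which are known to act on Txnip. Arrdc3 guides the turnover of membrane proteins such as integrin beta4, and Arrdc1 recruits Tsg101 of the ESCRT machinery to bud vesicles from the plasma membrane. The role of Arrdc2 is less well described.

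On mm9 the genes lie on 5 chromosomes: Txnip at chr3:96361880-96365780, Arrdc1 at chr2:24780873-24790801, Arrdc2 at chr8:73359037-73363619, Arrdc3 at chr13:81022683-81035303 and Arrdc4 at chr7:75886479-75894124. The longest transcript of each has 8 exons in GENCODE vM1. In that annotation the long noncoding RNA Gm15441 runs on the strand opposite to Txnip and covers all 3901 bases of the gene, and 1700023H06Rik shares 1301 bases with Arrdc3 on the opposite strand. Neither name is listed among the genes of the files. The sources used here do not say whether counting used the strand, so reads from Txnip and from Gm15441 cannot be told apart, and neither can those of Arrdc3 and 1700023H06Rik.

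The promoters of Txnip and Arrdc4 are shown because these were the members that rose. Each line gives the 250 bases before the annotated start, 5′ to 3′ along the gene, from the RefSeq promoter table of GRCm38.p6, placed by exact match at chr3:96361630-96361879 on the + strand (Txnip) and chr7:75894125-75894374 on the - strand (Arrdc4) of NCBIM37, the assembly of mm9. Capitals mark CCAAT boxes on either strand (CCAAT or its complement ATTGG), the E-box CACGTG and the imperfect E-box CACGAG.
Txnip: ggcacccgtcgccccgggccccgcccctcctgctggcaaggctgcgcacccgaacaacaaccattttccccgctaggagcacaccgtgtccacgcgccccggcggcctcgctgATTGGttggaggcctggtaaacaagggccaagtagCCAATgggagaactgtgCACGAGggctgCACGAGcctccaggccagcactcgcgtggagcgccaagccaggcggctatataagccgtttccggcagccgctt
Arrdc4: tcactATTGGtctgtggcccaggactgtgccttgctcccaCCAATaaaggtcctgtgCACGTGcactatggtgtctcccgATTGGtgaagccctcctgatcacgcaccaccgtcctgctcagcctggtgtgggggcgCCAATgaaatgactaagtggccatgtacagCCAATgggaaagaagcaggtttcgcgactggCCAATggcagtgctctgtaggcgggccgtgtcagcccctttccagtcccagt
In Txnip, 2 copies of CACGAG stood 5 bases apart, the first beginning at position -85 (counted from -1 just before the start), an arrangement known as the carbohydrate response element bound by Mlxip and Mlx. This pair was searched for after the sequence had been seen, so its presence in Txnip was known beforehand. Among 32851 promoter windows of 300 bases (250 before to 50 after a start) these exact letters, on either strand, were present in 1, that of Txnip. Pairs with other letters were not counted in any window, so the count does not say that Txnip alone holds such an element. CACGAG alone was present in 6.47% of the windows. Arrdc4 held 1 CACGTG, beginning at -193, a motif present in 7.15% of the windows, and 6 CCAAT boxes, a motif present in 37.4% of the windows. Txnip held 2 CCAAT boxes and no CACGTG. Arrdc1 held 2 copies of CACGAG and no CCAAT box, Arrdc2 held 1 copy of CACGAG and 3 CCAAT boxes, and of the 3 windows of Arrdc3, 2 held 1 CCAAT box each. None of the 7 member windows held GAANNTTC, the core of a heat shock element (7.86% of all windows), or TGATGCAAT, an amino acid response element (0.192%), on either strand. A match is a description of the letters, and its absence says only that they do not lie in the window.

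The libraries held 33415592 to 66478268 reads on genes, and 3 reads corresponded to 0.0451 to 0.0898 CPM, reads per 1000000 reads on genes, a floor that covers counting error only. All 9 fibroblast markers were expressed in every library, with a summed level of 31200 to 38800 CPM in the reference. The sum was 41800 to 59800 and 47100 to 64300 CPM at 45 and 135 min of HS and 35400 to 45100, 40500 to 46100 and 20300 to 23000 CPM at 45, 135 and 405 min of tunicamycin. At the last time 7 of the 9 fell, where 46.8% of all genes tested rose or fell. Markers of epithelial, leukocyte and endothelial cells summed to 5.09 to 11 CPM over all 18 libraries, of which Cd68, with 242 to 534 reads in every library, gave 4.63 to 9.58 CPM. Cdh1, Itgam and Krt8 reached 33, 33 and 29 reads, and the defining markers Epcam and Ptprc had at most 3 and 2 reads. The part of these markers in the results was not tested. Fewer cells of a type and less RNA per cell cannot be told apart in such bulk samples. Libraries of the same group differed most at HS 45 min, HS 135 min and tunicamycin 135 min, and the outlying libraries are named with their scores further on. Nothing says that the 3 cultures of a group were grown independently, so the p-values measure the spread between these samples, which may be technical. Genes with an adjusted p under 0.05 in edgeR (its quasi-likelihood test, p-values adjusted by Benjamini-Hochberg over the 12731 genes) are said to have risen or fallen.

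Txnip was the most abundant of the 5 in unstressed cells. Per length of transcript, its deposited level was 16.7 ± 3.51 RPKM (read density scaled for transcript length and library total, SD, n = 3) in the reference, followed by Arrdc4 at 5.94 ± 0.627 RPKM, Arrdc1 at 3.74 ± 0.448 RPKM, Arrdc2 at 2.66 ± 0.528 RPKM and Arrdc3 at 1.15 ± 0.246 RPKM. The reference values of neighbours in this order did not overlap, and the closest were those of Arrdc1 (3.35 to 4.23 RPKM) and Arrdc2 (2.26 to 3.26 RPKM). Within a gene the levels of the conditions are given below in CPM scaled by TMM over all 18 libraries, and each log2 fold change comes from the fit of the 6 libraries compared. In that unit Arrdc4, Arrdc1 and Arrdc2 had similar reference means (7.64, 7.45 and 7.36 CPM). Their order in RPKM therefore rests on the gene lengths used for RPKM, as does the size of a ratio between members.

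**Figure D1:**
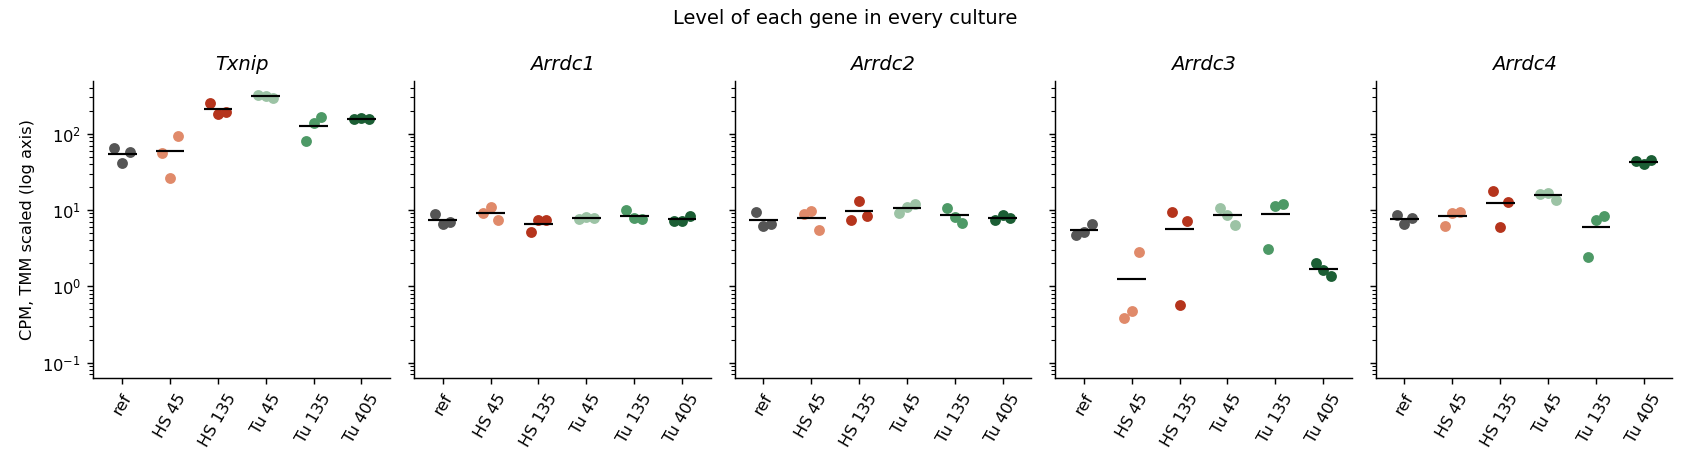
CPM of each gene in every culture (log axis shared by the panels; ref, reference; HS, heat shock; Tu, tunicamycin; numbers are minutes), with a line at the mean of the 3 cultures. Txnip peaked at 45 min of tunicamycin (291 to 326 CPM), Arrdc4 at 405 min (40.1 to 45.0 CPM), while Arrdc1 and Arrdc2 stayed between 5.08 and 13.1 CPM in every culture.

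The number of members that passed the threshold differed between the comparisons. At 45 min of HS, 0 of the 5 members passed, as did 0 of the 12731 genes (0%) with edgeR's quasi-likelihood test, although 1 member (Arrdc3) and 2481 genes had an unadjusted p under 0.05, and 0 members and 452 genes passed with the DESeq2 Wald test. At 135 min of HS 1 member passed (Txnip, higher), against 7.39% of all genes. At 45 min of tunicamycin 2 members passed (Txnip and Arrdc4, both higher), against 6.17% of all genes. At 135 min of tunicamycin 0 members and 0.134% of all genes passed. There 1 member (Txnip) and 2369 genes had an unadjusted p under 0.05 in edgeR, and DESeq2 called 1 member and 665 genes. At 405 min of tunicamycin 3 members passed (Txnip and Arrdc4 higher, Arrdc3 lower), where 46.8% of all genes passed in 1 direction or the other, so that a share of 3 in 5 lies near the background. The median log2 fold change of the 5 members was 0.11, 0.39, 0.66, 0.22 and 0.14 in these 5 comparisons, and that of all genes was -0.03, -0.02, 0.00, 0.00 and -0.01.

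**Figure D2:**
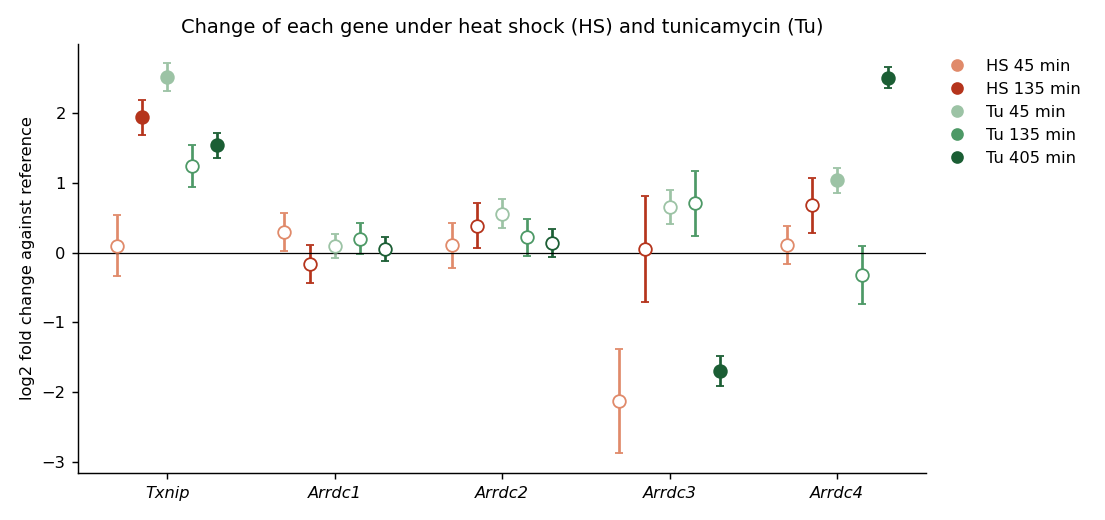
Log2 fold change of each gene against the reference in the 5 comparisons (bars, SE; filled points passed the threshold in edgeR's quasi-likelihood test, open points did not). All 5 comparisons share the 3 reference cultures, and the filled points are Txnip at HS 135 min and at 45 and 405 min of tunicamycin, Arrdc4 at 45 and 405 min of tunicamycin, and Arrdc3, lower, at 405 min.

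Txnip rose early under tunicamycin and later under HS. In the reference its level was 65.3, 41.0 and 58.3 CPM in replicates 1, 2 and 3. At 45 min of tunicamycin it was 326, 314 and 291 CPM. Every treated culture lay far above every reference culture, and the level was higher than in any other condition, with no overlap with the next one. The log2 fold change was 2.52 (standard error, SE, 0.195, adjusted p = 0.00122, edgeR), a 5.72-fold rise and the 21st largest of the 12731 genes. The call was kept in all 6 fits that left out 1 culture, with log2 fold changes of 2.34 to 2.66.

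At 135 min of tunicamycin Txnip was 79.3, 139 and 164 CPM, above the reference in every culture but spread widely, with replicate 1 the lowest. The log2 fold change was 1.24 (SE 0.304, adjusted p = 0.123, edgeR), which did not pass, whereas the DESeq2 Wald test gave 1.23 with an adjusted p of 0.0078. In this comparison same-numbered cultures deviated together, which does not show that they were paired. Blocking on that number gave 1.2 (adjusted p = 0.108, edgeR), with 0 of the 12731 genes called instead of 17. At 405 min the level was 157, 161 and 155 CPM, with almost no spread. This was 2.91-fold above the reference (log2 fold change 1.54, SE 0.179, adjusted p = 0.00034, edgeR). The call was kept whichever culture was left out, with log2 fold changes of 1.35 to 1.69.

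The course of Txnip through tunicamycin was also tested between successive times. Of all genes 0.291% passed between 45 and 135 min, and 0 members did. An unadjusted p under 0.05 in edgeR was reached by 2 members (Txnip and Arrdc4) and 2010 of the 12731 genes. DESeq2 called both members and 617 genes. The level of Txnip at 135 min lay below that at 45 min in every culture, with a log2 fold change of -1.28 (SE 0.264, adjusted p = 0.12, edgeR). Without tunicamycin 135 min replicate 1 it was -1.01 (adjusted p = 0.0195, edgeR), in a fit that called 218 genes instead of 37. From 135 to 405 min the log2 fold change was 0.28 (adjusted p = 0.381, edgeR) and the cultures of the 2 times overlapped.

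Under HS the level of Txnip at 45 min was 56.1, 25.9 and 94.0 CPM. This range, set by replicates 2 and 3, contained all 3 reference values, and the log2 fold change was 0.10 (SE 0.441, adjusted p = 0.894, edgeR). At 135 min it was 255, 183 and 191 CPM, above every reference culture and second only to 45 min of tunicamycin. The log2 fold change was 1.94 (SE 0.253, adjusted p = 0.0127, edgeR), a 3.82-fold rise. The call was lost without reference replicate 2 (1.76, adjusted p = 0.0866), without reference replicate 3 (1.98, adjusted p = 0.086) and without HS 135 min replicate 3 (2.0, adjusted p = 0.0808, edgeR), while the size of the rise stayed between 1.76 and 2.09.

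Between the 2 times of HS, 0 members and 0 of the 12731 genes (0%) passed with edgeR's quasi-likelihood test, while 1 member (Txnip) and 1482 genes had an unadjusted p under 0.05, and 1 member and 403 genes passed with DESeq2. Txnip was higher at 135 min in every culture than in any culture at 45 min, with a log2 fold change of 1.80 (SE 0.46, adjusted p = 0.242, edgeR). It passed with DESeq2 (1.80, adjusted p = 0.0168) and in the fit of all 6 groups (1.84, adjusted p = 0.00576, edgeR).

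Arrdc4, the closest relative of Txnip in its known control by glucose, rose to its highest level late under tunicamycin. Its reference level was 8.56, 6.62 and 7.73 CPM. At 405 min of tunicamycin it was 43.6, 40.1 and 45.0 CPM. No culture of any other condition came near these values, the next highest being 17.9 CPM. The log2 fold change was 2.51 (SE 0.149, adjusted p = 1.84e-05, edgeR), a 5.71-fold rise, the 123rd largest of all genes, and it stayed between 2.40 and 2.61 and past the threshold whichever culture was left out.

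The earlier tunicamycin times did not follow a steady climb. At 45 min Arrdc4 was 16.2, 16.8 and 13.4 CPM, above the reference in every culture, and at 135 min it was 2.44, 7.33 and 8.32 CPM, with replicate 1 below every reference culture. The rise at 45 min was 2.05-fold (log2 fold change 1.04, SE 0.177, adjusted p = 0.0204, edgeR). This call was lost without reference replicate 2 (0.94, adjusted p = 0.0931) or 3 (1.05, adjusted p = 0.0968), without tunicamycin 45 min replicate 1 (1.0, adjusted p = 0.0681) or 2 (0.97, adjusted p = 0.137), and in the fit of all 6 groups (1.02, adjusted p = 0.161, edgeR). At 135 min the log2 fold change was -0.32 (SE 0.42, adjusted p = 0.723, edgeR).

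The drop between 45 and 135 min had a log2 fold change of -1.35 (SE 0.42, adjusted p = 0.213, edgeR) with no overlap between the cultures, and -0.96 (adjusted p = 0.0429, edgeR) without tunicamycin 135 min replicate 1. Between 135 and 405 min Arrdc4 rose 7.01-fold (log2 fold change 2.81, SE 0.406, adjusted p = 0.0014, edgeR). That comparison called 2 members, Arrdc4 and Arrdc3, against 43.7% of all genes. In HS Arrdc4 was 6.16, 9.02 and 9.54 CPM at 45 min and 17.9, 6.01 and 12.9 CPM at 135 min, and both groups overlapped the reference. The log2 fold changes were 0.11 (adjusted p = 0.806) and 0.68 (adjusted p = 0.272, edgeR). Without HS 135 min replicate 2, the lowest, the later value was 1.04 (adjusted p = 0.034, edgeR).

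Arrdc3 fell late under tunicamycin, opposite in direction to Arrdc4 and Txnip. In the reference it was 4.74, 5.07 and 6.63 CPM. At 405 min of tunicamycin it was 2.02, 1.61 and 1.37 CPM, from 128, 91 and 76 reads. All 3 cultures lay below every reference culture, a 3.24-fold fall (log2 fold change -1.70, SE 0.216, adjusted p = 0.000518, edgeR), kept whichever culture was left out (-1.88 to -1.56). In the fit of all 6 groups, which shares 1 estimate of the spread with the more variable groups, the value was -1.72 (adjusted p = 0.119, edgeR).

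Before that fall Arrdc3 was 10.7, 8.56 and 6.44 CPM at 45 min and 3.07, 11.4 and 12.0 CPM at 135 min of tunicamycin. Both groups overlapped the reference, with log2 fold changes of 0.66 (SE 0.243, adjusted p = 0.14) and 0.71 (SE 0.469, adjusted p = 0.449, edgeR). From 135 to 405 min the fall was 5.37-fold (log2 fold change -2.43, SE 0.486, adjusted p = 0.00574, edgeR), and it passed whichever culture was left out.

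Under HS the cultures of Arrdc3 differed more, as a ratio of the highest to the lowest level, than those of any other member. At 45 min the level was 0.382, 0.479 and 2.85 CPM, from 20, 22 and 196 reads. All 3 lay below the reference, but replicate 3 stood well above the other two. The log2 fold change of -2.13 (SE 0.75) was the 36th lowest of the 12731 genes, yet did not pass (adjusted p = 0.233, edgeR). Without HS 45 min replicate 3 it was -3.67 (adjusted p = 0.000755, edgeR), in a fit that called 5785 of the 12731 genes instead of 0. At 135 min the level was 9.28, 0.576 and 7.14 CPM, from 587, 26 and 406 reads, with replicate 2 a factor of 16.1 below replicate 1, and the log2 fold change of 0.05 (SE 0.762, adjusted p = 0.971, edgeR) has no firm direction.

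Arrdc1, the member that recruits ESCRT, passed in none of the 10 comparisons and ranged from 5.08 to 11.1 CPM. Its levels were 8.74, 6.55 and 7.05 CPM in the reference, 9.05, 11.1 and 7.32 CPM at 45 min and 5.08, 7.42 and 7.42 CPM at 135 min of HS. Under tunicamycin they were 7.71, 7.97 and 7.94 CPM at 45 min, 9.99, 7.80 and 7.58 CPM at 135 min and 7.21, 7.18 and 8.40 CPM at 405 min. The conditions overlapped at every step of their order. The log2 fold changes against the reference ran from -0.16 (HS 135 min) to 0.30 (HS 45 min), and with an offset for GC content the value at HS 45 min was -0.22 (adjusted p = 0.468, edgeR).

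Arrdc2 ranged from 5.38 to 13.1 CPM. It was 9.34, 6.14 and 6.59 CPM in the reference, 8.78, 9.60 and 5.38 CPM at 45 min and 7.31, 13.1 and 8.46 CPM at 135 min of HS. Under tunicamycin it was 9.15, 10.9 and 12.1 CPM at 45 min, 10.7, 7.97 and 6.76 CPM at 135 min and 7.46, 8.57 and 7.85 CPM at 405 min. Neighbouring conditions overlapped throughout, and none of the 10 comparisons passed. The largest difference from the reference was at 45 min of tunicamycin, with a log2 fold change of 0.56 (SE 0.209, adjusted p = 0.147, edgeR). It passed without reference replicate 1 (0.76, adjusted p = 0.0231) and with the GC offset (0.53, adjusted p = 0.0319, edgeR), and at 405 min the value without reference replicate 1 was 0.35 (adjusted p = 0.0325, edgeR).

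HS and tunicamycin were compared directly at matched times. At 45 min 0 members and 0.204% of all genes passed. An unadjusted p under 0.05 in edgeR was reached by 3 members (Txnip, Arrdc3 and Arrdc4) and 3061 of the 12731 genes. DESeq2 called the same 3 members and 1125 genes. The log2 fold change, HS against tunicamycin, was -2.41 for Txnip (SE 0.445, adjusted p = 0.0879), -2.78 for Arrdc3 (SE 0.797, adjusted p = 0.143, the 4th lowest of all genes) and -0.92 for Arrdc4 (SE 0.243, adjusted p = 0.135, edgeR). The cultures of the 2 treatments did not overlap for any of the 3 genes. Without HS 45 min replicate 3 all 3 passed, at -2.93 (adjusted p = 0.000977), -4.32 (adjusted p = 0.000714) and -1.03 (adjusted p = 0.00823, edgeR). At 135 min 0 members passed, and 0 by DESeq2 or at an unadjusted p under 0.05, against 2.12% of all genes. There the log2 fold change of Txnip, HS against tunicamycin, was 0.69 (SE 0.303, adjusted p = 0.266, edgeR), with every HS culture above every tunicamycin culture.

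The balance between the members changed with time. Of the summed RPKM of the 5 genes, Txnip held 55.0% ± 3.0 (SD, n = 3) in the reference, 81.3% ± 0.564 at 45 min of tunicamycin and 54.3% ± 1.78 at 405 min, while the sum was 30.2 ± 4.96, 124 ± 12.3 and 84.5 ± 2.67 RPKM. Arrdc4, the next most abundant member in the reference and at 405 min, held 19.8% ± 1.28 in the reference and 37.7% ± 1.78 at 405 min. The ratio of Txnip to Arrdc4 in RPKM was 2.42 to 2.99 in the 3 reference cultures, 7.33 to 8.48 at 45 min and 1.35 to 1.57 at 405 min of tunicamycin, with no overlap between these times. At 135 min of HS the ratio was 5.58 to 12.0, above the reference in every culture. These ratios are described without a test.

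**Figure D3:**
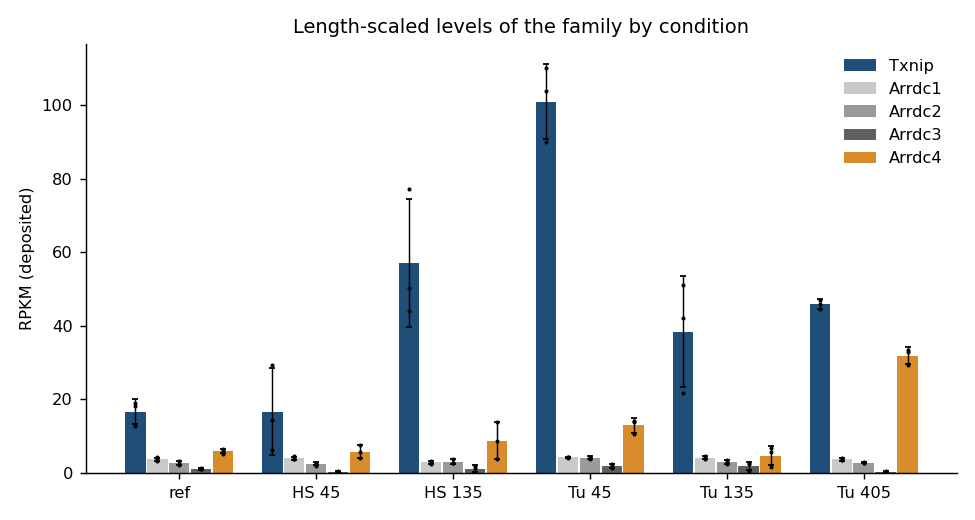
Deposited RPKM of the 5 genes in each condition (bars, mean; error bars, SD; dots, the 3 cultures). Txnip rose from a mean of 16.7 to 101 RPKM at 45 min of tunicamycin and stood at 45.9 RPKM at 405 min, where Arrdc4 had reached 31.9 RPKM from 5.94 RPKM.

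The spread between cultures of a group followed a pattern common to many genes. Along the direction of largest within-group spread, the first principal component of log2(CPM + 1) after subtracting group means, each library received a score, and this single direction held 74.7% of the within-group spread. Gene weights on this direction rose with transcript GC content, with a Spearman's rho of 0.69 across 12402 genes, which are not independent. The libraries farthest out were HS 45 min replicate 3 (-62.7), HS 135 min replicate 2 (56.5), HS 135 min replicate 1 (-46.4), tunicamycin 135 min replicate 1 (41.2) and HS 45 min replicate 2 (39.3). All 3 libraries at 405 min of tunicamycin lay between -8.33 and 5.65. Arrdc3, whose transcript has 40.6% GC against a median of 50.6% for the genes tested, deviated from its group mean opposite to this score (Pearson's r = -0.93, n = 18 libraries), as did Txnip (48.3% GC, r = -0.72) and Arrdc4 (48.2% GC, r = -0.75). Arrdc2 (59.8% GC, r = 0.95) and Arrdc1 (58.6% GC, r = 0.83) deviated with it. Both axes come from the same libraries, so these values are descriptions, and the part of this pattern in the HS results was not tested.

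**Figure D4:**
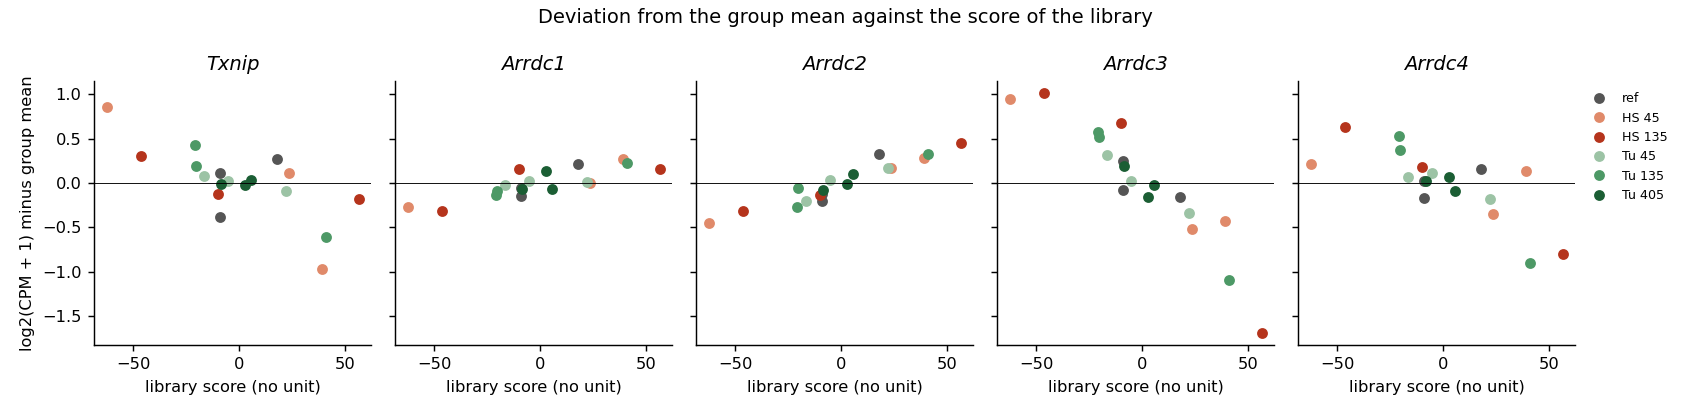
Deviation of log2(CPM + 1) from the group mean (vertical) against the score of each of the 18 libraries along the common direction of within-group spread (horizontal, no unit). Arrdc3, Txnip and Arrdc4 fall and Arrdc1 and Arrdc2 rise from left to right, and the outermost points are HS libraries.

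Partners of the alpha-arrestins were examined as lists. At 45 min of HS and at 135 min of tunicamycin no listed partner passed with edgeR, where 0 and 17 of all genes did and DESeq2 called 452 and 665. Of 14 genes of the thioredoxin system, 0 rose and 1 fell at 135 min of HS (7.39% of all genes passed), 0 rose and 2 fell at 45 min of tunicamycin (6.17%), and 2 rose and 4 fell at 405 min (46.8%). Thioredoxin itself, Txn1, the protein that Txnip binds, fell by 0.93 (log2) at 45 min of tunicamycin (SE 0.147, adjusted p = 0.0152, edgeR), from 448 ± 71.7 to 235 ± 5.81 CPM (SD, n = 3), and by 0.62 at 405 min (adjusted p = 0.0123, edgeR). The glutaredoxin Glrx fell by 0.98 at 45 min and by 2.22 at 405 min of tunicamycin (adjusted p = 0.0201 and 5.01e-05, edgeR), and Srxn1, which reactivates oxidized peroxiredoxins, fell by 0.66 at 405 min (adjusted p = 0.00264, edgeR). Thioredoxin reductase Txnrd1 had a log2 fold change of -0.03 at 405 min (adjusted p = 0.876, edgeR). It had -0.39 at 135 min of HS (adjusted p = 0.2) and -0.24 at 45 min of tunicamycin (adjusted p = 0.239, edgeR), without overlap with the reference. The median log2 fold change of the list was -0.40 and -0.52 at 45 and 135 min of HS and -0.32, -0.31 and 0.07 at 45, 135 and 405 min of tunicamycin, against -0.03 to 0.00 for all genes.

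Among 11 tested regulators of Txnip transcription or mRNA, 1 rose at 135 min of HS (Foxo3, named after its values were seen) and 1 at 45 min of tunicamycin (Ern1), and at 405 min 2 rose and 3 fell. A count of 1 in 11 lies near the 7.39% and 6.17% of all genes that passed at the first 2 of these times. The ER stress kinase Eif2ak3 rose from 28.4 ± 1.56 to 92.6 ± 12.4 CPM at 405 min (log2 fold change 1.70, adjusted p = 6.86e-05, edgeR). The kinase and RNase Ern1 rose by 0.69 at 45 min (adjusted p = 0.0311) and by 0.95 at 405 min (adjusted p = 0.000536, edgeR). The glucocorticoid receptor Nr3c1 fell by 1.35 at 405 min (adjusted p = 0.000547, edgeR). The glucose-sensing factor Mlxip and its partner Mlx had log2 fold changes of -0.03 (adjusted p = 0.888) and -0.08 (adjusted p = 0.702, edgeR) at 405 min. At 45 min of tunicamycin they were 0.09 (adjusted p = 0.8) and -0.60 (adjusted p = 0.0879, edgeR), and Mlx did not overlap the reference. Mlxip had 0.56 at 135 min of tunicamycin (adjusted p = 0.253, edgeR). Mlxipl had at most 1 read in any library and was not tested.

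Of 6 genes of glucose uptake and trapping, 0 rose and 1 fell at 405 min of tunicamycin, and none passed at the other times. The one that fell was hexokinase Hk1, from 139 ± 24.9 to 64.1 ± 2.18 CPM (log2 fold change -1.11, adjusted p = 0.000639, edgeR). Hk2 had -0.38 (adjusted p = 0.0946) and the glucose transporter Slc2a1, a cargo of Txnip, -0.24 (adjusted p = 0.222, edgeR) at 405 min. Their smallest p-values came at other times. Hk2 had 0.67 at 45 min of tunicamycin (adjusted p = 0.0563) and Slc2a1 -0.78 at 135 min of HS (adjusted p = 0.0529, edgeR). Neither overlapped the reference there. Of 11 NEDD4-family ligases and adaptors, 1 rose at 45 min of tunicamycin, Nedd4l by a log2 fold change of 0.60 (adjusted p = 0.04, edgeR), and 4 rose and 2 fell at 405 min. Nedd4 fell by 0.49 (adjusted p = 0.0153) and Smurf2 by 1.23 (adjusted p = 0.000921), while Smurf1 rose by 0.47 (adjusted p = 0.00808, edgeR). Itch stood at a log2 fold change of 0.00 at 405 min (adjusted p = 0.992, edgeR). Under HS it had -1.06 at 45 min (adjusted p = 0.303) and -0.90 at 135 min (adjusted p = 0.299, edgeR), overlapping the reference at both times.

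Of 7 cargo and ESCRT partners, 1 rose at 135 min of HS (Itgb4, log2 fold change 1.77, adjusted p = 0.0382, edgeR), and 3 rose and 1 fell at 405 min of tunicamycin. The iron transporter Slc11a2, ubiquitylated with the help of alpha-arrestins, rose by 0.91 at 405 min, from 40.6 ± 8.84 to 76.4 ± 8.02 CPM (SD, n = 3, adjusted p = 0.00355, edgeR). Of 6 tested other genes with an arrestin fold, 1 rose and 1 fell at 405 min and none at the other times. Beta-arrestin Arrb1 fell by 0.89 (adjusted p = 0.00169) and Arrb2 rose by 0.43 (adjusted p = 0.0454, edgeR). Dscr3 had -0.26 at 405 min (adjusted p = 0.226) and -0.59 at 135 min of tunicamycin (adjusted p = 0.195, edgeR). Arrdc5, the remaining alpha-arrestin, had at most 3 reads in any library and was not tested. Of all genes 7.39% passed at 135 min of HS, 6.17% at 45 min and 46.8% at 405 min of tunicamycin, and the counts of these lists are read against those shares. All HS 135 min values of listed genes, those of Foxo3 and Itgb4 among them, include the outlying replicates 1 and 2. The HS 45 min values include the outlying replicates 2 and 3.

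Across the 18 libraries, which fall into 6 groups and so mix conditions with library spread, the genes most like each member by Pearson's r of log2(CPM + 1) are given as a description. For Txnip they were 4922501C03Rik (0.926), Chd2 (0.911) and Dub1 (0.909). For Arrdc4 they were Herpud2 (0.95), Xbp1 (0.944) and Stbd1 (0.942). For Arrdc3 they were Dtl (0.959), Flrt3 (0.94) and Nipbl (0.934), for Arrdc1 Cox10 (0.948), Pcif1 (0.926) and Wdr62 (0.889), and for Arrdc2 Sfi1 (0.943), Zfp839 (0.887) and Leng9 (0.887). No member was among the nearest genes of another. Txnip had r = 0.47 with Arrdc4, 0.46 with Arrdc3, 0.29 with Arrdc2 and -0.45 with Arrdc1, and Arrdc3 had r = -0.05 with Arrdc4.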

How the data were processed

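Poly(A) RNA of NIH3T3 cells was sequenced on an Illumina instrument. The paper names a modified Illumina library protocol and also a NuGEN kit, and does not say which libraries were made with which. The authors used the DNAnexus platform for alignment to mm9 and for counting against RefSeq. The aligner and counter are not given in the sources used here. For each gene the authors deposited an unnormalized estimated count with 4 significant digits, and 17.7% to 23.2% of the values under 1000 reads in a library were not whole. They also deposited RPKM, made by the authors from the count, gene length and library total, and a Z-score and an RMS-normalized RPKM, which were not used. Samples were grouped by their labels, and joined across files by name.

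After rounding the estimated counts, each of 10 comparisons was a fit of its 6 libraries in edgeR 4.0.16 (R 4.3.3, TMM normalization, quasi-likelihood test). P-values were adjusted by Benjamini-Hochberg over 12731 genes, those seen in every library (minimum 1 read), and the threshold was 0.05. The standard error was computed from the fold change and its F statistic. Library sizes were 33415592 to 66478268 reads. Alternatives were DESeq2 1.42.0 (Wald test and size factors), total counts, other count filters, all 6 groups in 1 fit, the replicate number as a block, a lowess offset for transcript GC content (span 0.3, longest GENCODE vM1 transcript, a value for 97.4% of the tested genes) with and without the block, a minimum log2 fold change of 1 in size, and leaving out each culture. Same-numbered cultures of the labels had a positive mean correlation at HS 45 min against the reference (0.171) and for HS 135 against 45 min (0.178). Replicate 2 (-0.28) and replicate 1 (-0.693), respectively, went the other way there. All 3 pairs deviated together only for tunicamycin 135 min against the reference (correlations of 0.343, 0.323 and 0.299). Along the common direction of spread, replicate 1 was the odd one out in both groups. Scores were 17.9, -9.01 and -8.9 in the reference and 41.2, -20.4 and -20.8 at tunicamycin 135 min. The correlations therefore do not show that the numbers pair the cultures. The fit was tested on simulated counts.

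The text names the 5 members, the 3 genes most like each, and from each of 6 partner lists the 3 genes with the smallest p plus Txn1, Txnrd1, Mlxip, Mlxipl, Mlx, Slc2a1, Nedd4, Itch and Arrdc5. Foxo3 was added after its values were seen, and cell type markers were used only to check the line. The result of 1 listed gene is not reported here. Members and lists were chosen with earlier results of these data known. Other steps used Python 3.11.15.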

Additional observations from a re-analysis of the deposited data

Results flagged for a closer look

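The level of Arrdc3 under tunicamycin differed between its times, with a log2 fold change of -2.43 at 405 min against 135 min (adjusted p = 0.00574 in edgeR's quasi-likelihood test of the difference between the times, with all 3 cultures at 405 min below all 3 at 135 min). Of all genes 43.7% passed in this comparison. The level of Arrdc4 also differed between these times, with a log2 fold change of 2.81 (adjusted p = 0.0014, edgeR) and every culture at 405 min above every culture at 135 min.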

How the results depend on the processing

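Of 800 log2 fold changes of the 5 members under the alternatives, 712 kept their direction and their side of the threshold. Another 24 passed it in addition, 11 no longer passed and 53 changed sign, 0 of which had passed before. Most values had not passed in the main fit, so keeping their side mostly means staying uncalled. Those under the minimum log2 fold change are the main values and could not change sign. The calls of Txnip at 45 and 405 min and of Arrdc4 at 405 min of tunicamycin were kept under every alternative run. The causes of the changes below were not tested. Arrdc3 had the lowest counts of the members, with 20 to 26 reads in 3 HS libraries, which held 54261116 to 59694649 reads on genes.

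The number of members past the threshold moved as follows. With the DESeq2 Wald test it was 1 for tunicamycin 135 min against the reference (Txnip), 1 for HS 135 min against HS 45 min (Txnip), 2 for tunicamycin 135 against 45 min and 3 for HS against tunicamycin at 45 min. In the fit of all 6 groups it was 1 for tunicamycin 45 min against the reference, 1 for HS 135 min against HS 45 min and 2 for HS against tunicamycin at 45 min. With the GC offset it was 4 for tunicamycin 45 min against the reference, where Arrdc3 passed too (0.64, adjusted p = 0.0418), 1 for tunicamycin 135 against 45 min and 2 for HS against tunicamycin at 45 min. When 1 culture was left out it ranged from 0 to 1 (HS 45 min), 0 to 2 (HS 135 min), 1 to 3 (tunicamycin 45 min), 0 to 2 (tunicamycin 135 against 45 min) and 0 to 3 (HS against tunicamycin at 45 min). With 1 culture left out, the smaller group holds 2. The fits without HS 45 min replicate 3, with 1 and 3 members past the threshold, called 5785 and 7087 of the 12731 genes.

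With the replicate block, whose numbers are not known to pair the samples, it was 0 at HS 135 min (Txnip 1.95, adjusted p = 0.133) and 1 at tunicamycin 45 min (Arrdc4 1.04, adjusted p = 0.13, edgeR). Cultures with the same number had mean correlations of -0.159 and -0.171 in these comparisons. The block changed no other call of a member. Its sign changes were Txnip at HS 45 min (-0.07), Arrdc3 at HS 135 min (-0.52) and Arrdc3 from 45 to 135 min of tunicamycin (-0.11).

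The count of all genes was 941 at HS 135 min, 786, 17 and 5960 at 45, 135 and 405 min of tunicamycin, 37 for tunicamycin 135 against 45 min, and 26 and 270 for HS against tunicamycin at 45 and 135 min. DESeq2 gave 2159 at HS 135 min, 1843 and 665 at 45 and 135 min of tunicamycin, 617 for tunicamycin 135 against 45 min, and 1125 and 1256 for HS against tunicamycin. The fit of all 6 groups gave 1346 at HS 45 min, 3243 at HS 135 min, 411 at tunicamycin 135 min, 905 for HS 135 against 45 min, 105 for tunicamycin 135 against 45 min, and 1267 and 1771 for HS against tunicamycin. The GC offset gave 2616, 1961 and 287 for HS 135 min and tunicamycin 45 and 135 min, 110 and 263 between the times of HS and the first times of tunicamycin, and 507 and 1456 for HS against tunicamycin. The block gave 0 at HS 135 min and 21 at tunicamycin 45 min, and 0 for tunicamycin 135 min, for tunicamycin 135 against 45 min and for HS against tunicamycin at either time, also with the GC offset for all but the first 2. Total counts without TMM gave 3 for HS 135 against 45 min, and 116 and 484 for HS against tunicamycin at 45 and 135 min. A log2 fold change of at least 1 left 307, 2548 and 2679 genes for tunicamycin 45 and 405 min and for 405 against 135 min. Without 1 culture the counts ran from 0 to 5785 (HS 45 min), 11 to 2464 (HS 135 min), 58 to 2499 (tunicamycin 45 min), 0 to 61 (tunicamycin 135 min), 0 to 2 (HS 135 against 45 min), 0 to 218 (tunicamycin 135 against 45 min), 3547 to 8126 (tunicamycin 405 against 135 min), and 0 to 7087 and 0 to 364 (HS against tunicamycin).

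Sign changes were limited to values that had not passed. With total counts in place of TMM they were -0.08 (Arrdc2) and -0.03 (Arrdc4) at HS 45 min, -0.04 for Arrdc3 at HS 135 min, -0.04 for Arrdc1 at tunicamycin 405 min, -0.01 (Arrdc1) and -0.03 (Arrdc3) for tunicamycin 135 against 45 min, and -0.08 (Arrdc1, 45 min) and -0.01 (Arrdc2, 135 min) for HS against tunicamycin. With the GC offset, alone and then with the replicate block, they were -0.22 and -0.23 (Arrdc1) and -0.52 and -0.52 (Arrdc2) at HS 45 min, -0.04 and -0.05 (Arrdc2) at HS 135 min, -0.02 in all 4 fits of Arrdc1 and Arrdc2 at tunicamycin 135 min, -0.06 and -0.06 (Arrdc1) at tunicamycin 405 min, -0.08 and -0.07 (Arrdc1) for tunicamycin 135 against 45 min, 0.03 and 0.03 (Arrdc2) for 405 against 135 min, -0.27 and -0.28 (Arrdc1) for HS against tunicamycin at 45 min, and -0.02 and -0.02 (Arrdc2) at 135 min. Both corrections together also gave -0.07 for Arrdc3 at HS 135 min. Without 1 culture, values spanning 0 ran from -0.42 to 0.45 (Txnip), -0.06 to 0.32 (Arrdc2) and -0.01 to 0.28 (Arrdc4) at HS 45 min, -0.50 to 0.61 (Arrdc3) at HS 135 min, -0.62 to 0.07 (Arrdc4) at tunicamycin 135 min, -0.05 to 0.19 (Arrdc1) and 0.00 to 0.35 (Arrdc2) at tunicamycin 405 min, -0.03 to 0.40 (Arrdc2) for HS 135 against 45 min, -0.01 to 0.17 (Arrdc1) and -0.23 to 0.47 (Arrdc3) for tunicamycin 135 against 45 min, -0.25 to 0.09 (Arrdc2) for 405 against 135 min, and -0.09 to 0.35 (Arrdc2) for HS against tunicamycin at 135 min. With DESeq2 size factors the mean of Txnip at tunicamycin 405 min was 150 CPM and that of Arrdc1 at 45 min was 7.54 CPM, against 158 and 7.87 CPM, and with total counts the means at tunicamycin 45 min were 350 CPM for Txnip, 17.5 CPM for Arrdc4 and 8.85 CPM for Arrdc1, against 310, 15.5 and 7.87 CPM.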
